A study of Homo sapiens with 12 samples.

Results

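The 10 genes described here encode the machinery of N6-methyladenosine (m6A), the methyl mark that cells place on adenosines inside mRNA. They are the writers METTL3, METTL14, WTAP and VIRMA, the erasers ALKBH5 and FTO, and the readers YTHDF1, YTHDF2, YTHDF3 and YTHDC1. The genes are named by their place in the m6A pathway and not by a threshold on their values, although earlier results of these data were known when they were chosen. All 10 were among the 24559 gene symbols of the count table and among the 16538 genes that had enough counts to be tested.

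METTL3 is the catalytic subunit that transfers the methyl group, METTL14 binds METTL3 and holds the RNA, and WTAP and VIRMA join the regulatory part of the complex that places it on its targets. ALKBH5 and FTO are oxygenases that remove the mark. The YTH domain proteins bind it, YTHDC1 in the nucleus and YTHDF1, YTHDF2 and YTHDF3 in the cytoplasm, where they act on mRNA decay and translation.

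Polysome-associated RNA was sequenced from 3 established triple-negative breast cancer (TNBC) cell lines, in 12 libraries that fall into 6 groups of 2. MDA-MB-231 and SUM159 carried a control (EV CTRL in the labels) or a TRMT112 knockdown (TRMT112 KD), and BT549 carried EV CTRL or a TRMT112 overexpression construct (TRMT112 OE). The labels give no other treatment, and the methods add that cells for polysome fractions received cycloheximide, which arrests ribosomes on mRNA, shortly before lysis, in the controls too. TRMT112 is a small protein that binds and stabilizes several RNA and protein methyltransferases. According to the study's methods, the KD was a TRMT112 shRNA plasmid introduced with a lipid reagent, with puromycin selection, and its control was a non-silencing shRNA, while the labels call that control an empty vector. The OE was an open reading frame clone with G418 selection against the empty plasmid. No clone is named, and each line had its own culture medium, so line and medium cannot be told apart in a comparison of lines. Nothing in the labels says that the 2 libraries of a group came from separate cultures, so the p-values measure the spread between libraries, which may be technical. Only polysome fractions were sequenced: a change in the amount of an mRNA and a change in its loading with ribosomes cannot be told apart, and a change common to all mRNAs is removed by scaling.

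The libraries held between 22954226 and 27434677 expected counts. TRMT112 itself was at 165 and 173 CPM (counts scaled to library size by TMM) in MDA-MB-231 EV and at 70.3 and 73.8 in KD. It was at 265 and 275 CPM in SUM159 EV and at 155 and 163 in KD, and at 129 and 129 in BT549 EV and 179 and 181 in OE, so every library stood on the side its label gives. Of the markers that define TNBC, ESR1 had no row, PGR had at most 9 counts in any library and ERBB2 had 1478 to 3089. The leukocyte marker PTPRC had at most 16 counts, while VIM, which marks mesenchymal cells, had 14860 to 46426. CD68, also an immune marker, had group means of 181 CPM in MDA-MB-231 EV, 28.3 in SUM159 EV, 176 in BT549 EV and 6.88 in OE. The epithelial markers KRT8 and KRT18 were at 285 and 367 CPM in MDA-MB-231 EV and 206 and 206 in SUM159 EV. In BT549 EV they were at 0.41 and 0.25 CPM. EPCAM, also epithelial, was at 2.96 CPM in MDA-MB-231 EV, 0.11 in SUM159 EV and 0.02 in BT549 EV.

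Coding transcripts of WTAP and YTHDC1 are described separately below, and the sequences at which they part are shown first. WTAP lies on the plus strand of chromosome 6 (GRCh38, chr6:159725585-159756319). Its coding transcripts WTAP-201, WTAP-205 and WTAP-206 share their first 452 coding bases and part at position 159748369. In the lines below, the last 30 shared bases are in lower case and the bases that follow in each transcript are in capitals. WTAP-206 continues into the next exon at chr6:159753460-159753519, and its full open reading frame has 396 codons. WTAP-201 reads into the intron at chr6:159748370-159748373 and stops, which leaves 151 codons. WTAP-205 uses another exon at chr6:159748590-159748650 and stops after 170 codons.
WTAP-206: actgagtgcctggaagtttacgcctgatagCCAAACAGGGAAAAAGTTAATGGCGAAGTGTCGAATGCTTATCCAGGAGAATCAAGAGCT
WTAP-201: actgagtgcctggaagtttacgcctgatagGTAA
WTAP-205: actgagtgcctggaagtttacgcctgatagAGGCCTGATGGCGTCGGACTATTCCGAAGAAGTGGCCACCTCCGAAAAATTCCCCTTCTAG

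YTHDC1 lies on the minus strand of chromosome 4 (GRCh38, chr4:68310387-68350090). Its transcripts YTHDC1-207 and YTHDC1-202 differ in their coding part by a 54-base exon at chr4:68332794-68332847 and by 24 bases at chr4:68318730-68318753, both present in YTHDC1-207 alone. They are in capitals below, each with 15 coding bases on either side.
YTHDC1-207, exon: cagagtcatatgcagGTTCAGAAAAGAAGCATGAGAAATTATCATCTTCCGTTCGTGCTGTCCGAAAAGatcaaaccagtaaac
YTHDC1-207, extension: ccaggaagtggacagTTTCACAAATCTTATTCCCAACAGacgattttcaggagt

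The first comparison of levels is between the genes themselves, on the TPM scale, which divides counts by transcript length. In all 12 libraries METTL14 had the lowest TPM of the 10. ALKBH5 had the highest TPM in the 4 MDA-MB-231 libraries (214 to 228 TPM) and in both BT549 OE libraries (117 and 123 TPM), and WTAP had the highest in SUM159 and in BT549 EV. WTAP TPM ran from 78.1 in an MDA-MB-231 EV library to 238 in a BT549 EV library. METTL14 TPM was between 1.81 and 9.15, and its 2 BT549 EV libraries were at 4.01 and 7.84, so the split of its reads among transcripts of different length was uneven even within a group. FTO was the gene whose TPM depended most on transcripts outside the protein-coding class, since only 62.8% to 73.9% of its counts were on protein-coding ones. Most of the rest, 23.3% to 35.3% of its counts, was on transcripts annotated for nonsense-mediated decay. With coding transcripts alone its mean over the 6 groups was 36.4 TPM.

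**Figure D1:**
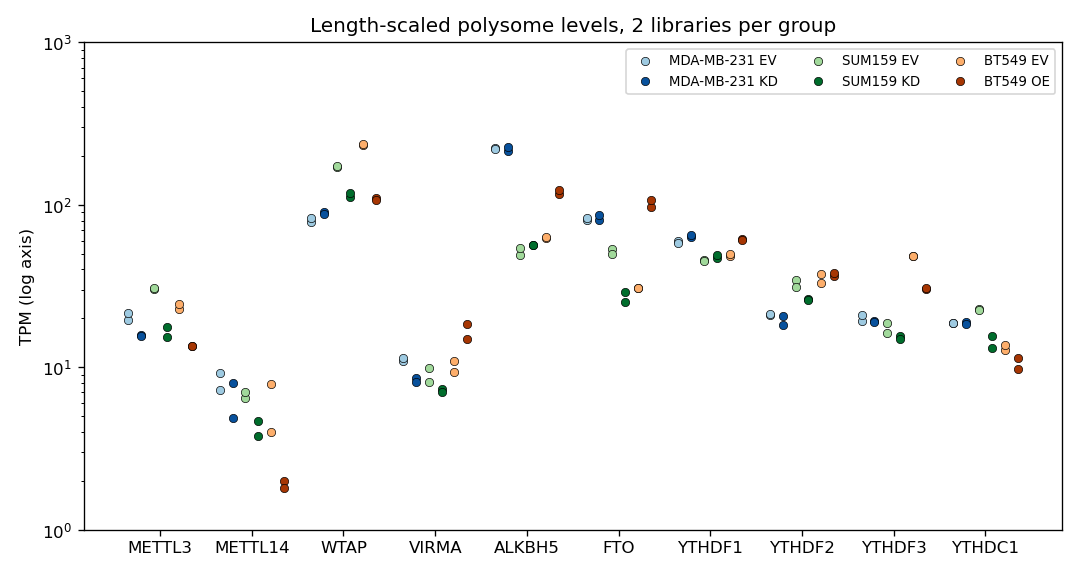
TPM (log axis) of each of the 10 genes in every library, coloured by group, with 2 points per group. METTL14 sits lowest in all 12 libraries, and ALKBH5 and WTAP take the highest places.

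In CPM, which compares a gene with itself across groups, WTAP, FTO and ALKBH5 varied most over the 6 groups. The highest group mean was 4.05 times the lowest for WTAP (BT549 EV over MDA-MB-231 EV), 4.05 times for FTO (BT549 OE over SUM159 KD) and 3.96 times for ALKBH5 (MDA-MB-231 KD over SUM159 EV). YTHDF1 varied least, with 1.57 times between BT549 OE and SUM159 EV, and YTHDC1 came next with 1.76 times. The span of the remaining 5 genes lay between 2.27 times for VIRMA and 3.01 times for YTHDF3.

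**Figure D2:**
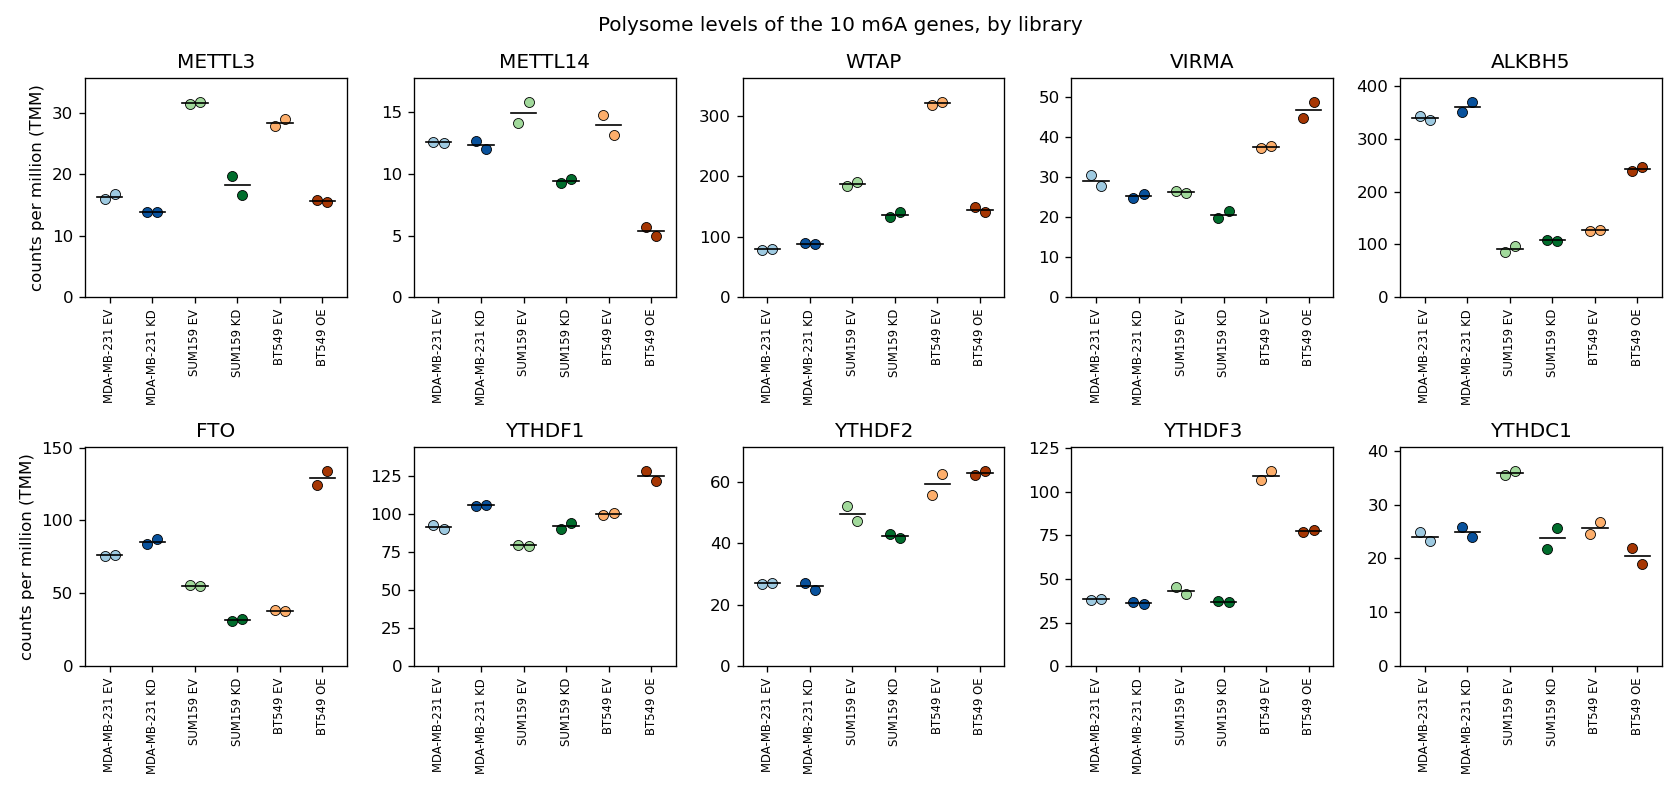
TMM-scaled CPM of each gene by library, from 0, with 2 points per group and a bar at the group mean. The writers METTL3, METTL14 and WTAP fall in SUM159 KD and in BT549 OE, FTO falls in the first and rises in the second, and the MDA-MB-231 pairs lie close together.

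The first question of the design was how the genes stood in MDA-MB-231 after TRMT112 KD. The changes were small: 5 of the 10 genes passed the test (edgeR quasi-likelihood, adjusted p under 0.05), WTAP, FTO and YTHDF1 higher and METTL3 and VIRMA lower. Of all genes tested 37.7% were called in this comparison, 21.2% higher and 16.5% lower. None of the 10 changed by 0.5 or more on the log2 scale, as 10.2% of all genes did. The median absolute log2 fold change was 0.12 over the 10 genes and 0.23 over all genes.

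YTHDF1, which in the cytoplasm binds m6A and has been tied to translation, was at 92.4 and 90.3 CPM in MDA-MB-231 EV and at 105 and 106 in KD, without overlap. Its log2 fold change was 0.21 ± 0.04 (SE; adjusted p = 0.000256). It was the one gene of the 10 that stayed called whichever of the 4 libraries was left out. WTAP was at 77.7 and 80.5 CPM in EV and 89.6 and 87.2 in KD, a log2 fold change of 0.16 ± 0.04 (adjusted p = 0.00540 by edgeR). FTO was at 75.4 and 76.6 CPM in EV and 83.6 and 87.1 in KD, a log2 fold change of 0.17 ± 0.05 (adjusted p = 0.00711 by edgeR). Both KD libraries were above both EV libraries for either gene. Here and below, how many of all genes lack overlap was not counted, so a lack of overlap is a description only. Scaled by library size alone, WTAP and FTO were no longer called, at log2 fold changes of 0.07 and 0.08.

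METTL3 was at 15.9 and 16.8 CPM in MDA-MB-231 EV and at 13.8 and 13.9 in KD, and VIRMA was at 30.6 and 27.7 CPM in EV and 24.9 and 25.9 in KD. Their log2 fold changes were -0.24 ± 0.09 (SE; adjusted p = 0.0420) and -0.20 ± 0.07 (adjusted p = 0.0334, edgeR). Both calls were lost with the size factors of DESeq2 (RLE) in edgeR, where the adjusted p was 0.0638 for METTL3 and 0.0579 for VIRMA by edgeR. The call on METTL3 was also lost on leaving out any 1 of the 4 libraries, and that on VIRMA on leaving out any but EV replicate 2. Over the 10 genes, the number called fell from 5 to 1 without EV replicate 1 (YTHDF1), to 3 without KD replicate 1 (FTO, YTHDF1 and, newly called, ALKBH5) and to 2 without KD replicate 2 (WTAP and YTHDF1).

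The other 5 genes did not pass the test in MDA-MB-231. ALKBH5 came nearest, at 343 and 336 CPM in EV and 352 and 370 in KD, with a log2 fold change of 0.09 and a 95% confidence interval of 0.01 to 0.16 (adjusted p = 0.0701 by edgeR). For METTL14 the interval was -0.24 to 0.20, for YTHDF2 -0.21 to 0.10, for YTHDF3 -0.20 to 0.04 and for YTHDC1 -0.13 to 0.23, all on the log2 scale. The interval of METTL14, the gene with the fewest counts, was the widest of the 5.

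In SUM159 the same question had another answer. All 10 genes passed the test after TRMT112 KD, 8 lower and 2 higher, where 60.1% of all genes were called, 31.4% lower and 28.6% higher. METTL3, METTL14, FTO and YTHDC1 changed by 0.5 or more on the log2 scale, all downward, a size that 34.9% of all genes reached. The median log2 fold change was -0.40 over the 10 genes and 0 over all genes. In absolute value the median was 0.40 over the 10 genes and 0.46 over all genes, so they moved no further than a typical gene.

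All 4 writers fell in SUM159 KD. METTL3, the catalytic subunit, was at 31.4 and 31.7 CPM in EV and 19.7 and 16.6 in KD, and METTL14, its partner, at 14.1 and 15.9 CPM in EV and 9.23 and 9.58 in KD. The log2 fold changes were -0.80 ± 0.08 (SE; adjusted p = 7.40e-09) for METTL3 and -0.67 ± 0.11 (adjusted p = 9.77e-06, edgeR) for METTL14. WTAP fell by 0.46 on the log2 scale, from 184 and 191 CPM to 133 and 140. VIRMA fell by 0.35, from 26.5 and 26.1 CPM to 19.7 and 21.4. For each writer both KD libraries lay below both EV libraries, and the share of all genes without such overlap was not counted.

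The erasers moved apart in SUM159 KD. FTO was at 55.4 and 55.3 CPM in EV and at 31.2 and 32.6 in KD, a log2 fold change of -0.79 ± 0.06 (SE; adjusted p = 1.49e-11 by edgeR). ALKBH5 rose, from 85.9 and 96.3 CPM to 109 and 107, a log2 fold change of 0.24 ± 0.05 (adjusted p = 5.74e-05 by edgeR). Neither gene's KD libraries overlapped its EV libraries, again without a share over all genes to set beside it. The ratio of ALKBH5 to FTO in TPM went from 1.01 ± 0.12 (SD, n = 2) to 2.11 ± 0.22, and with coding transcripts alone from 1.98 ± 0.67 to 3.92 ± 0.07.

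Among the readers, YTHDC1, the nuclear one, fell most in SUM159 KD. It was at 35.5 and 36.3 CPM in EV and 21.8 and 25.7 in KD, a log2 fold change of -0.59 ± 0.08 (SE; adjusted p = 1.41e-06 by edgeR). YTHDF2, best known for carrying marked mRNA to decay, was at 52.1 and 47.3 CPM in EV and 43.1 and 41.8 in KD. YTHDF3 was at 45.2 and 41.4 CPM in EV and 37.2 and 36.6 in KD. Both fell by 0.23 on the log2 scale. YTHDF2 was not called without EV replicate 1 (adjusted p = 0.0977 by edgeR), the only call of the 10 that a left-out SUM159 library ended. YTHDF1 alone among the readers rose, from 79.8 and 78.9 CPM to 90.2 and 93.9, a log2 fold change of 0.22 ± 0.04 (adjusted p = 0.000114 by edgeR).

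**Figure D3:**
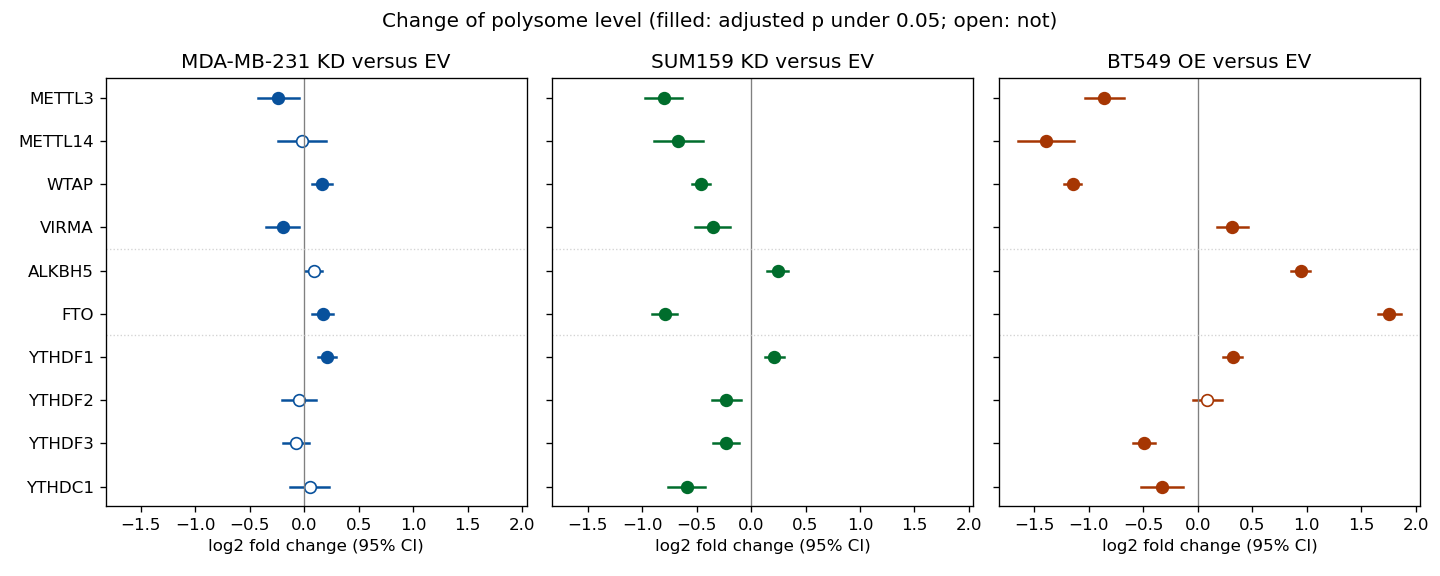
Log2 fold change of each gene in the 3 comparisons within a line, with its 95% confidence interval; filled points have an adjusted p under 0.05. In MDA-MB-231 no point reaches 0.5 in either direction, in SUM159 8 of 10 points are below 0, and in BT549 the points run from METTL14 at -1.39 to FTO at 1.76.

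The KD effects of the 2 lines were compared in the same model, as the effect in MDA-MB-231 minus that in SUM159. They differed for 6 of the 10 genes, where 50.9% of all genes were called. FTO differed most, by 0.96 ± 0.07 (SE; adjusted p = 1.26e-10 by edgeR), having risen in one line and fallen in the other. YTHDC1 differed by 0.64 ± 0.12, METTL14 by 0.65 ± 0.15, WTAP by 0.62 ± 0.06 and METTL3 by 0.56 ± 0.12, each with the more negative value in SUM159. ALKBH5 differed by -0.16 ± 0.06 (adjusted p = 0.0293 by edgeR). That call was lost on leaving out any of 4 of the 8 libraries, replicate 1 of each of the 4 groups, with the smallest difference at -0.07 without SUM159 EV replicate 1. YTHDF1 rose by nearly the same amount in both lines, and the interval of the difference was -0.13 to 0.12. The interval was -0.07 to 0.37 for VIRMA, -0.03 to 0.38 for YTHDF2 and -0.02 to 0.32 for YTHDF3.

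In BT549 the design asked the reverse question, with TRMT112 raised. After OE 9 of the 10 genes passed the test, 4 higher and 5 lower, where 70.6% of all genes were called, 35.6% higher and 35% lower. METTL3, METTL14, WTAP, ALKBH5 and FTO changed by 0.5 or more on the log2 scale, as 50.8% of all genes did. The median absolute log2 fold change was 0.68 over the 10 genes and 0.70 over all genes.

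The writers METTL14, WTAP and METTL3 fell in BT549 OE. METTL14 was at 14.8 and 13.2 CPM in EV and at 5.69 and 4.97 in OE, a log2 fold change of -1.39 ± 0.12 (SE; adjusted p = 6.21e-10 by edgeR). WTAP was at 318 and 323 CPM in EV and 149 and 140 in OE, a log2 fold change of -1.15 ± 0.04 (adjusted p = 6.06e-18 by edgeR). METTL3 was at 27.8 and 28.9 CPM in EV and 15.8 and 15.5 in OE, a log2 fold change of -0.86 ± 0.09 (adjusted p = 5.24e-09 by edgeR). VIRMA, the scaffold that binds WTAP, rose instead, from 37.2 and 37.8 CPM to 44.7 and 48.8, a log2 fold change of 0.32 ± 0.07. In none of the 4 did OE and EV libraries overlap, and the share of all genes for which this held was not counted.

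Both erasers rose in BT549 OE. FTO was at 38.8 and 37.6 CPM in EV and at 124 and 134 in OE, a log2 fold change of 1.76 ± 0.05 (SE; adjusted p = 5.13e-19 by edgeR), or 3.38 times. ALKBH5 was at 126 and 127 CPM in EV and 240 and 247 in OE, a log2 fold change of 0.94 ± 0.04 (adjusted p = 1.28e-15 by edgeR), or 1.92 times. FTO had the largest log2 fold change of the 10 genes in the 3 comparisons within a line. FTO-204, the transcript with most FTO counts, rose by 1.67 ± 0.21 on the log2 scale in a fit across transcripts (adjusted p = 0.000172 by edgeR). It is annotated as protein-coding, so the rise was not confined to transcripts outside that class.

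The readers changed less in BT549 OE. YTHDF3 was at 107 and 112 CPM in EV and 76.9 and 78.4 in OE, a log2 fold change of -0.49 ± 0.05 (SE; adjusted p = 3.90e-09 by edgeR). YTHDF1 was at 99.5 and 101 CPM in EV and 128 and 122 in OE, a log2 fold change of 0.32 ± 0.04 (adjusted p = 2.55e-07 by edgeR). YTHDC1 was at 24.5 and 26.8 CPM in EV and 21.9 and 19.0 in OE, a log2 fold change of -0.33 ± 0.09. Its call was lost without OE replicate 2 (adjusted p = 0.0643 by edgeR). YTHDF2 was at 55.8 and 62.8 CPM in EV and 62.5 and 63.7 in OE, with overlap, and did not pass the test (95% confidence interval -0.04 to 0.22, adjusted p = 0.214 by edgeR).

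TRMT112 fell in the KD of SUM159 and rose in the OE of BT549. METTL3 was at log2 fold changes of -0.80 and -0.86 in these comparisons, METTL14 at -0.67 and -1.39, WTAP at -0.46 and -1.15, YTHDF3 at -0.23 and -0.49 and YTHDC1 at -0.59 and -0.33, all lower in both. ALKBH5, at 0.24 and 0.94, was higher in both. In MDA-MB-231 KD METTL3 was called lower and WTAP higher, and METTL14, YTHDF3, YTHDC1 and ALKBH5 did not pass the test. How many of all genes had the same direction in SUM159 KD and BT549 OE was not counted, so these signs are a description only. YTHDF1 was higher in all 3 comparisons with its EV, at 0.21, 0.22 and 0.32. FTO was at -0.79 in SUM159 KD and 1.76 in BT549 OE, opposite in sign, and at 0.17 in MDA-MB-231 KD. VIRMA was likewise opposite in sign, lower in SUM159 KD and higher in BT549 OE, and was called in both. YTHDF2 was lower in SUM159 KD and did not pass the test in BT549 OE. The signs of METTL3, METTL14, WTAP, FTO and YTHDF1 in SUM159 and BT549 were the same under all 3 scalings.

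Among the overlaps compared, 3 of the genes share exon bases with a gene on the other strand. The strand setting of the counting is not given in the sources used here. Exons of further opposite-strand genes that overlap ALKBH5, FTO and VIRMA were not compared. Those genes had a mean of at most 0.36 counts or no row, which gives no value for MDA-MB-231 and SUM159. The 3' end of METTL3 shares 383 bases with TOX4-203, which had a mean of 858 counts a library against 489 for METTL3. TOX4 had log2 fold changes of 0.16 in MDA-MB-231 KD, -0.26 in SUM159 KD and -0.86 in BT549 OE, the last the same as METTL3. Its part in the METTL3 values was not tested. SOD2 overlaps WTAP and fell by 2.71 on the log2 scale in SUM159 KD and by 2.83 in BT549 OE. Its group means stood in the same order as those of WTAP, from 4153 CPM in BT549 EV to 200 in MDA-MB-231 EV. Each SOD2 transcript that shares exon bases with WTAP had at most 151 counts in a library, where WTAP had 1975 to 6983. These counts come from the same counting, so they cannot show reads given to the wrong gene. The part of SOD2 in the WTAP values was not tested. The lncRNA that shares 920 bases with YTHDF2 had a mean of 22.4 counts, against 1042 for YTHDF2. FTO and its neighbour RPGRIP1L shared no exon bases.

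The WTAP coding transcripts, those shown above and WTAP-202 and WTAP-207, whose sequences are not shown, did not change together. The short coding forms WTAP-201, WTAP-205 and WTAP-207 made up 55.5% and 51.0% of the coding counts in MDA-MB-231 EV, 54.5% and 55.1% in KD, 49.5% and 48.0% in SUM159 EV and 49.2% and 48.4% in KD. In BT549 they made up 8.01% and 7.50% in EV and 21.1% and 22.9% in OE. BT549 thus stood apart from the other lines, and its 2 groups did not overlap. In CPM, the sum of the full-length forms WTAP-206 and WTAP-202 went from 274 and 278 in BT549 EV to 112 and 103 in OE. The sum of the short forms was at 23.9 and 22.5 in EV and 29.9 and 30.6 in OE. These shares are estimates of the authors' counting and are given without a test. In the fit across transcripts, WTAP-206 fell in BT549 OE by 1.47 ± 0.11 on the log2 scale (adjusted p = 3.60e-06 by edgeR) and WTAP-201 rose by 0.67 ± 0.15 (adjusted p = 0.00786). In SUM159 KD both fell, WTAP-206 by 0.62 ± 0.11 and WTAP-201 by 0.52 ± 0.14 (adjusted p = 0.00337 and 0.0353 by edgeR). In MDA-MB-231 KD WTAP-206 rose by 0.48 ± 0.11 (adjusted p = 0.0481 by edgeR), and WTAP-201 did not pass the test, at 0.18 ± 0.14. WTAP-202 had the opposite sign to WTAP-206 in each line and did not pass the test within any. It was at 0.51 ± 0.19 in BT549 OE, 0.23 ± 0.19 in SUM159 KD and -0.76 ± 0.19 in MDA-MB-231 KD. Its KD effects differed between the lines by -0.99 ± 0.27 (adjusted p = 0.0483 by edgeR). WTAP-207, a rare form in BT549, had 3.09 and 0.873 counts in EV and 22.3 and 51.5 in OE and was called higher there (adjusted p = 0.000416 by edgeR).

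**Figure D4:**
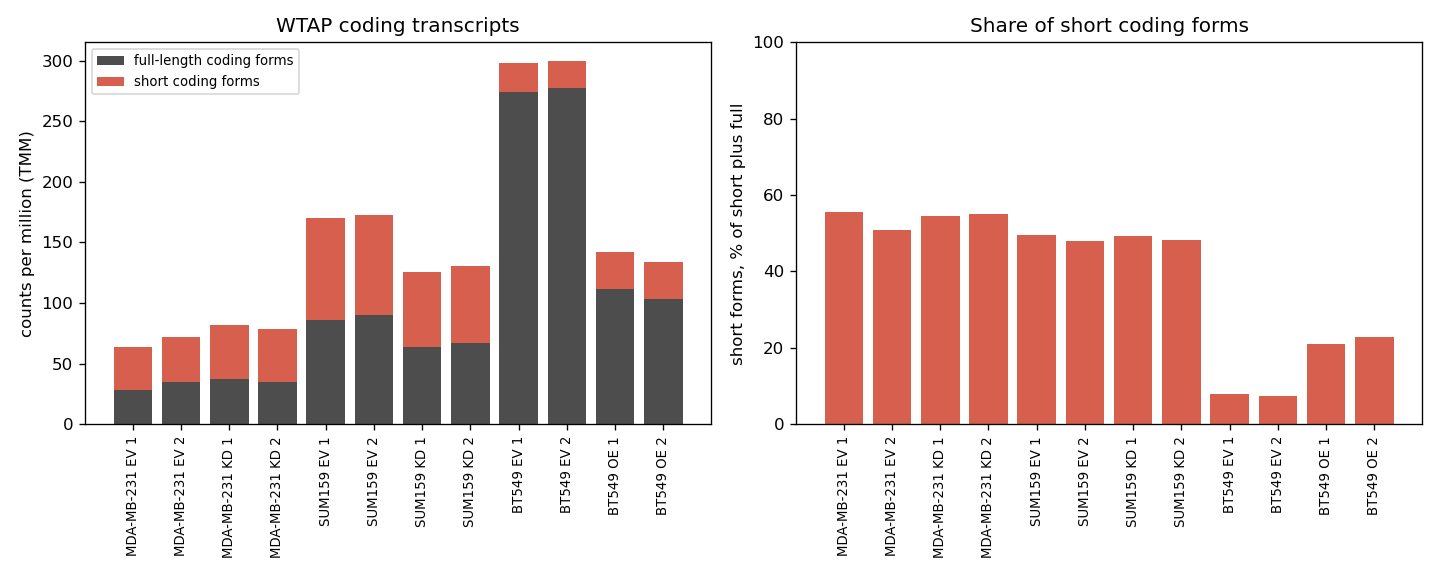
Left, CPM of full-length (dark) and short (red) WTAP coding transcripts stacked for each of the 12 libraries; right, the short forms as a percent of both. The share of short forms is near 50% in MDA-MB-231 and SUM159, 7.50% to 8.01% in BT549 EV and 21.1% to 22.9% in BT549 OE.

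The YTHDC1 transcript with the extra exon, YTHDC1-207, held 40.6% and 43.1% of the counts of both forms in MDA-MB-231 EV and 30.6% and 31.4% in KD. It held 29.1% and 30.5% in BT549 EV and 36.5% and 42.6% in OE. In SUM159 the groups overlapped, at 43.2% and 34.0% in EV and 34.4% and 45.6% in KD, a spread within a group about as wide as the distance between groups elsewhere. In the fit across transcripts YTHDC1-202, the form without the exon, fell by 0.68 ± 0.17 on the log2 scale in SUM159 KD (adjusted p = 0.0242) and by 0.54 ± 0.17 in BT549 OE (adjusted p = 0.0489, edgeR). It did not pass the test in MDA-MB-231 KD (0.31 ± 0.17, adjusted p = 0.500 by edgeR), and its KD effects differed between the lines by 0.98 ± 0.24 (adjusted p = 0.0294 by edgeR). YTHDC1-207 passed the test in none of these comparisons.

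The 3 cytoplasmic readers are close relatives, and their shares of the summed YTHDF TPM differed between lines. YTHDF1 held 59.8% and 58.0% in MDA-MB-231 EV, 46.0% and 48.7% in SUM159 EV and 37.3% and 36.7% in BT549 EV. YTHDF3 held 37.3% and 35.8% in BT549 EV and 23.6% and 23.7% in OE. The YTHDF1 share was higher in both libraries of each KD or OE group than in both EV libraries of its line, while the sum over the 3 genes was 133 ± 4 TPM (SD, n = 2) in BT549 EV and 129 ± 0.15 in OE. METTL3 TPM was 2.52 to 7.12 times that of METTL14 in the 6 group means. This ratio was uneven within groups, at 5.69 and 3.12 in the BT549 EV libraries and 3.25 and 1.96 in those of MDA-MB-231 KD.

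**Figure D5:**
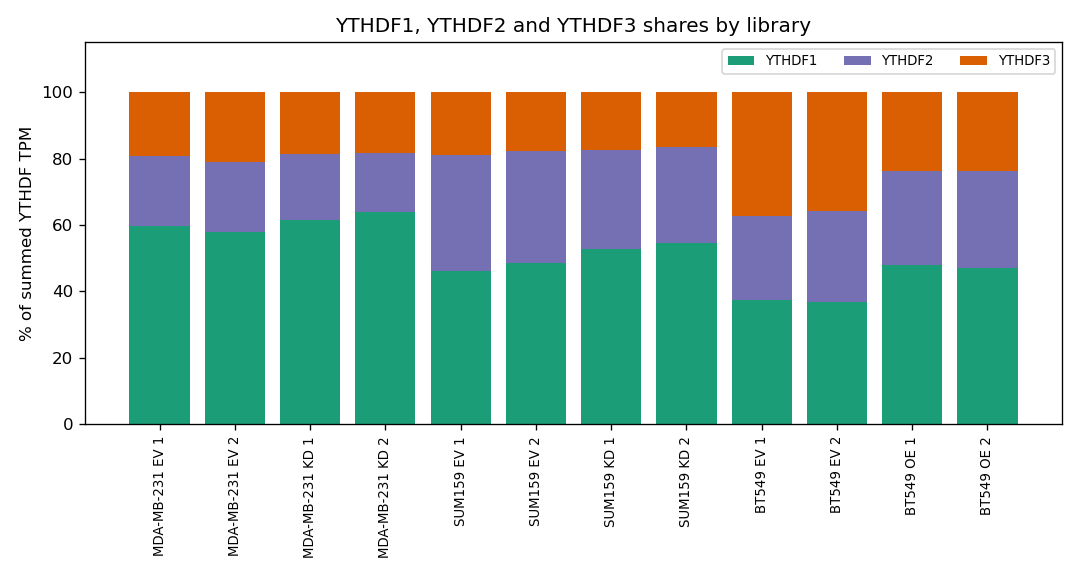
Share of YTHDF1, YTHDF2 and YTHDF3 in their summed TPM for each of the 12 libraries. YTHDF3 holds 37.3% and 35.8% in BT549 EV and under 24% in BT549 OE, and YTHDF1 holds the most in MDA-MB-231.

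Between the EV groups, the 3 lines differed in most of the 10 genes, as they did in most genes. SUM159 differed from MDA-MB-231 in 9 of 10 genes (75.7% of all genes), BT549 from MDA-MB-231 in 8 (79.5%) and BT549 from SUM159 in 8 (78.4%). WTAP was 2.37 times as high in SUM159 EV as in MDA-MB-231 EV and 4.05 times as high in BT549 EV. ALKBH5 was 3.73 times as high in MDA-MB-231 EV as in SUM159 EV and 2.69 times as high as in BT549 EV. YTHDF3 was 2.85 times as high in BT549 EV as in MDA-MB-231 EV and 2.52 times as high as in SUM159 EV. Scaling by library size alone lowered the median gene of BT549 EV by 0.31 against MDA-MB-231 EV and by 0.21 against SUM159 EV on the log2 scale. WTAP, ALKBH5 and YTHDF3 kept these directions under it, while between BT549 EV and MDA-MB-231 EV the log2 difference turned from 0.13 to -0.18 for YTHDF1, from 0.16 to -0.16 for METTL14 and from 0.09 to -0.22 for YTHDC1. YTHDF1 was called in both directions (adjusted p = 0.00656 and 0.000267 by edgeR). Between SUM159 EV and MDA-MB-231 EV, METTL14 and YTHDF3 lost their calls and VIRMA gained one under RLE as well as under library size alone. By library size alone VIRMA also lost its call between BT549 EV and MDA-MB-231 EV, where YTHDC1 gained one, and YTHDF2 lost its call between BT549 EV and SUM159 EV, where METTL3 and METTL14 gained one.

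The order of the 6 group means in CPM differed from gene to gene. Overlap between neighbouring groups was not counted over all genes. METTL3 ran from SUM159 EV (31.6) over BT549 EV, SUM159 KD, MDA-MB-231 EV and BT549 OE to MDA-MB-231 KD (13.9), and only SUM159 KD and MDA-MB-231 EV overlapped as neighbours. METTL14 ran from SUM159 EV (15.0) over BT549 EV, MDA-MB-231 EV, MDA-MB-231 KD and SUM159 KD to BT549 OE (5.33), and the libraries of the first 2 groups overlapped, as did those of the MDA-MB-231 groups. WTAP ran from BT549 EV (321) over SUM159 EV, BT549 OE, SUM159 KD and MDA-MB-231 KD to MDA-MB-231 EV (79.1) without overlap between neighbours. VIRMA, ALKBH5 and FTO likewise had no neighbouring groups that overlapped. VIRMA was highest in BT549 OE (46.8) and lowest in SUM159 KD (20.6), ALKBH5 highest in MDA-MB-231 KD (361) and lowest in SUM159 EV (91.1), and FTO highest in BT549 OE (129) and lowest in SUM159 KD (31.9). Among the readers, neighbours overlapped at SUM159 KD with MDA-MB-231 EV for YTHDF1, at the BT549 groups and at the MDA-MB-231 groups for YTHDF2, and at SUM159 KD with MDA-MB-231 KD for YTHDF3. YTHDC1 had the most overlaps, since only SUM159 EV, the highest at 35.9, stood clear of the group that followed it.

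The wider pathway was described by 31 other genes in 5 lists, of which 30 were tested. IGF2BP1 had no row, which gives no value for MDA-MB-231 and SUM159. In MDA-MB-231 KD 16 were called, 9 higher and 7 lower, where 37.7% of all genes were called. In SUM159 KD 26 were called, 7 higher and 19 lower, where 60.1% of all genes were called, and in BT549 OE 27, 18 higher and 9 lower, where 70.6% were. Counts of the single lists below are likewise calls and read against these shares. Over the 30 genes, the median log2 fold change was 0.07 in MDA-MB-231 KD, -0.38 in SUM159 KD and 0.19 in BT549 OE, against 0, 0 and 0.02 over all genes. The median absolute log2 fold change was 0.14, 0.38 and 0.38 in these comparisons. Over all genes it was larger in each, at 0.23, 0.46 and 0.70.

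Of the 4 partners of the writer complex, all 4 were called in SUM159 KD (60.1% of all genes), 3 of them lower (31.4%), and all 4 in BT549 OE (70.6%), 2 in each direction. RBM15, which guides the complex to RNA, fell by 0.58 ± 0.12 in SUM159 KD and by 1.03 ± 0.13 in BT549 OE, and CBLL1, a ring finger subunit, fell by 0.55 in both. ZC3H13, which keeps the complex in the nucleus, fell by 0.33 in SUM159 KD and rose by 0.68 in BT549 OE. In MDA-MB-231 KD 3 of the 4 were called: ZC3H13 and CBLL1 fell by 0.29 and 0.26, and RBM15B rose by 0.10.

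The next list joined other readers with RNA-binding proteins associated with m6A, not all of them readers. Of the 11 tested, 9 were called lower and 1 higher in SUM159 KD (31.4% and 28.6% of all genes). In BT549 OE 5 were higher and 5 lower (35.6% and 35%), and in MDA-MB-231 KD 4 were higher and 2 lower (21.2% and 16.5%). HNRNPA2B1, a nuclear splicing protein, fell by 1.49 ± 0.03 in SUM159 KD and by 0.54 ± 0.03 in BT549 OE, and rose by 0.27 ± 0.03 in MDA-MB-231 KD. RBMX fell by 1.20 ± 0.04 in SUM159 KD and by 0.33 ± 0.05 in MDA-MB-231 KD.

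Of 8 partners of the readers, CNOT1, the scaffold of the deadenylase complex that YTHDF2 recruits, fell by 1.10 ± 0.04 in SUM159 KD and rose by 0.19 ± 0.03 in MDA-MB-231 KD. RIDA and POP1, which belong to the cleavage route of YTHDF2 targets, rose in BT549 OE by 1.00 ± 0.07 and 1.38 ± 0.10. Of the 8, 6 were called in BT549 OE, all higher, where 70.6% of all genes were called and 35.6% were called higher. In SUM159 KD 4 were higher and 3 lower, and in MDA-MB-231 KD 2 were higher and 1 lower.

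Of the 3 genes that supply the methyl donor, AHCY, which clears the product of methylation, fell by 0.69 ± 0.04 in SUM159 KD and by 0.24 ± 0.03 in MDA-MB-231 KD and rose by 1.03 ± 0.04 in BT549 OE. In those comparisons the list had 2 of 3 lower, 1 of 3 lower, and 2 higher with 1 lower. Among the 4 other methyltransferases, METTL5, the TRMT112 partner that methylates ribosomal RNA, fell by 0.17 ± 0.05 in MDA-MB-231 KD and rose by 0.93 ± 0.07 in BT549 OE. In SUM159 KD it was at 0.10 ± 0.05 and did not pass the test (adjusted p = 0.0817 by edgeR). ZCCHC4, which also methylates ribosomal RNA, fell by 0.54 ± 0.12 in SUM159 KD and by 0.46 ± 0.14 in BT549 OE. Of these 4, 2 were higher and 1 lower in MDA-MB-231 KD, 1 higher and 2 lower in SUM159 KD and 3 higher and 1 lower in BT549 OE. PCIF1, which methylates the cap-adjacent adenosine, rose by 0.14 in MDA-MB-231 KD and by 0.30 in SUM159 KD.

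Over 12580 genes, the gene whose profile over the 6 group means lay nearest was sought for each of the 10, by the root mean square of the difference in centred log2 CPM. YTHDF1 had the closest match, RDH13, at 0.03 (Pearson r = 0.99 over 6 groups), followed by YTHDC1 with GATB at 0.05. FTO and ALKBH5 had the most distant ones, UTP4 at 0.16 and UBL3 at 0.15. The distance is not scaled to a gene's span over the groups. That span was smallest for YTHDF1 and YTHDC1 and among the largest for FTO and ALKBH5. Each match is the nearest of 12580 genes, and r was 0.98 to 0.99 for all 10. For METTL3 the nearest was R3HCC1L, for METTL14 C3orf52, for WTAP SLC30A1, for VIRMA SHQ1, for YTHDF2 HP1BP3 and for YTHDF3 KLHL15. The 6 points of each profile share their libraries and scaling, and these pairs are a description only.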

How the data were processed

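Polysome-associated RNA of 3 TNBC cell lines was sequenced (12 libraries, 2 in each of 6 groups), and groups were taken from the sample labels. Per the labels and methods, the authors used Trimmomatic for trimming, HISAT2 for alignment to GRCh38, SAMtools for removing duplicates and Partek. The table the authors deposited holds expected counts per Ensembl transcript that are not normalized. Cells marked "?" (5.08% of rows in 8 columns, recorded as another unit) were set to 0, and no transcript of the 10 genes was marked. The counting tool and its strand setting are not given in the sources used here, and the labels and the methods name different library kits, poly(A)-selected in the labels and stranded with rRNA depletion in the methods. The table lists no transcript at 0 in all 4 BT549 libraries.

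Transcripts were matched to GENCODE 44 without version (79.6%, holding 99.2% to 99.4% of counts), summed per symbol and rounded. After filterByExpr and TMM scaling, the quasi-likelihood test of edgeR 4.0.16 was run (1 model of 6 group means, 6 residual degrees of freedom) in R 4.3.3, called at a Benjamini-Hochberg adjusted p under 0.05 over all 16538 genes. TPM used GENCODE transcript lengths. Fits across transcripts were adjusted over 64066 transcripts. DESeq2 1.42.0, 2 other scalings, filters, a replicate block and each library left out were alternatives, and the fits were tested on simulated counts. Precision is limited by 2 libraries a group, and reads carry no molecular identifiers. Sequences come from the GENCODE 44 transcripts. The named genes are the 10, TRMT112, up to 3 called genes of each wider list and comparison with the largest change, and the nearest profile of each of the 10. TOX4, SOD2 and RPGRIP1L were named after their overlap was seen. The genes and lists were chosen with earlier results of these data known.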

Additional observations from a re-analysis of the deposited data

Results flagged for a closer look

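6 genes are listed here because the KD effect differed between MDA-MB-231 and SUM159 in the test of the difference itself (edgeR quasi-likelihood, log2 scale, MDA-MB-231 minus SUM159). The values were 0.96 for FTO, 0.65 for METTL14, 0.64 for YTHDC1, 0.62 for WTAP, 0.56 for METTL3 and -0.16 for ALKBH5. Groups of 2 libraries are too small for a test of outlying libraries.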

How the results depend on the processing

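Of 137 recomputed counts of called genes, 123 stayed within 1.5 times the reported count. In MDA-MB-231 KD the count of 5 ranged from 1 to 4 without 1 library, was 2 with each gene's main transcript alone, and was 0 for the 10 genes and 0 for the wider lists when an absolute log2 fold change of 0.5 was also required. With that requirement the count was 4 of 10 in SUM159 KD (13 of 30 in the wider lists), where 34.9% of all genes passed. It was 5 of 10 in BT549 OE (11 of 30 in the wider lists), where 50.8% passed. Between SUM159 EV and MDA-MB-231 EV it was 5 and between BT549 EV and SUM159 EV 4, as fewer genes can pass. With the main transcript alone the count was 3 for the difference of KD effects and 5 between BT549 EV and SUM159 EV. The cause was not tested. The counts between EV groups at this limit and those of the refits, also with a replicate block below, are given without a share over all genes.

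Within the lines and in the difference of KD effects, the log2 fold changes that turned sign had not passed the test. Turns between EV groups by library size alone are given with those comparisons. In MDA-MB-231 KD, METTL14 was 0.062 with its main transcript alone, and library size alone gave -0.0024 for ALKBH5 and -0.039 for YTHDC1. Without 1 library the log2 fold change ran from -0.063 to 0.018 for METTL14, from -0.117 to 0.015 for YTHDF2 and from -0.0044 to 0.108 for YTHDC1. In the difference of KD effects, YTHDF1 was 0.015 with no filter and ran from -0.033 to 0.019 without 1 library.

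Replicate numbers did not pair the samples: same-numbered deviations correlated at -0.03 to 0.04 over the 15 pairs of groups. With a replicate block 6, 10 and 9 of the 10 genes were called in MDA-MB-231 KD, SUM159 KD and BT549 OE and 6 in the difference of KD effects. The one call of a gene within a line that it changed was ALKBH5 in MDA-MB-231 KD (adjusted p = 0.0373 by edgeR). Low counts limit METTL14 most, with 105 counts in its lowest library.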
